A study of Dichomitus squalens with 6 samples.

Results

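Scaffold 52 of the genome assembly of Dichomitus squalens holds 84 gene models over 198264 bases, and 73 of them were expressed well enough to be followed across 3 sugars. Members were chosen by position and by expected count: a model was kept when its expected count, the number of reads that the counting software assigned to it, was at least 10 in 2 or more of the 6 RNA-seq libraries. The whole gene set has 15295 models on 406 scaffolds, of which 12699 met the same count rule. The kept models were numbered 1 to 73 by their start, and positions are those of the authors' deposited gene models. The rule used position and expression level, and the scaffold itself was picked with earlier results of these data known, so the counts of members that differed between sugars describe the scaffold and are not a test of it.

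Dichomitus squalens is a white-rot basidiomycete, a fungus that lives on wood. The libraries came from mycelium of the wild-type strain CBS 464.89, sampled after 5 days at 28 °C on plates with 1.5% agar and a medium poor in nitrogen that contained asparagine and succinate. That medium was common to all groups, which differed in the added sugar at 25 mM: cellobiose (2 libraries), L-rhamnose (2 libraries) or xylose (2 libraries). The labels do not say that the 2 libraries of a sugar came from separate cultures, so the p-values measure the spread between these libraries, which may be technical, and every group is 1 strain.

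Cellobiose is a disaccharide of glucose released from cellulose, xylose is the main backbone sugar of xylan, and L-rhamnose is a side-chain and backbone sugar of pectin. Fungi that live on plant material switch sets of genes on and off according to the sugars they meet, and genes for one pathway can lie next to each other on a chromosome. Copies of one ancestral gene can also stay side by side after duplication, and such copies often keep the same pattern of exon lengths. The files pair the models with numbers only and give no product names, so no role is given to any model here, and the labelled tissue was not checked against marker genes. In bulk RNA, fewer cells that express a gene and less RNA per cell cannot be told apart.

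The libraries held 7306517 to 8126006 expected counts on all models. Of these, the members held 0.338% and 0.326% in the cellobiose libraries, 0.574% and 0.506% in those from L-rhamnose, and 0.309% and 0.341% in those from xylose. Both L-rhamnose libraries lay above the other 4. Levels are given below as FPKM, the authors' deposited count scaled to coding length and library size, always in the order replicate 1 and replicate 2. Differences are log2 fold changes with their standard error (SE) from edgeR's quasi-likelihood test on the rounded expected counts, fitted over 12667 models with all 6 libraries, and called models are those with an adjusted p (Benjamini-Hochberg) below 0.05. The replicates on xylose lay further apart than the others: 21 of 73 members differed by more than 2-fold in FPKM between them, against 4 on each of the other sugars. Over all models past the count rule those shares were 11.6% for xylose, 5.89% for cellobiose and 3.83% for L-rhamnose.

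**Figure D1:**
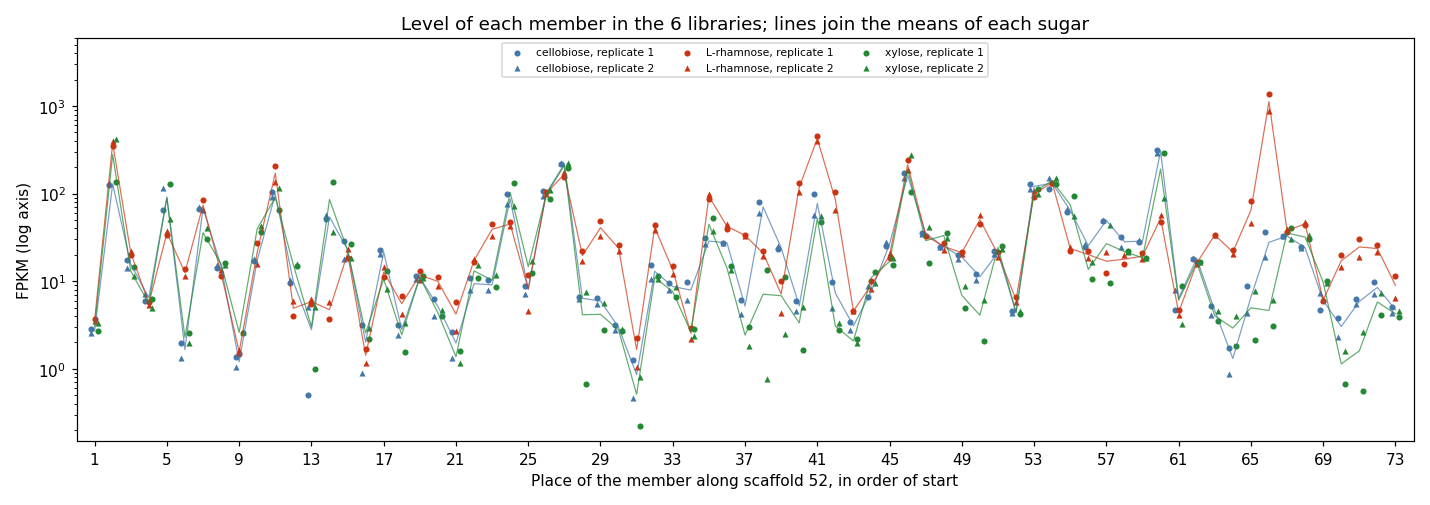
FPKM (log axis) of the 73 members against their place along scaffold 52, for each sugar, with circles for replicate 1, triangles for replicate 2 and lines that join the means. The highest values on L-rhamnose belong to model 66, at 1363 and 879 FPKM, and the circles and triangles lie furthest apart on xylose.

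The scaffold was densely packed. Of the members, 32 lay on the plus strand and 41 on the minus strand, and the median gap between the coding spans of neighbours was 832.5 bases. Neighbours ran in tandem in 38 of 72 pairs, away from each other in 17 and towards each other in 17. The median member had 1095 coding bases in 5 exons, with a range of 171 bases (model 25, 66026 to 66703) to 3504 bases (model 58, 153137 to 158823). The closest coding spans were those of models 6 and 7, 118 bases apart, followed by models 26 and 27 (248 bases), 1 and 2 (266 bases) and 51 and 52 (284 bases). No coding spans of neighbours overlapped, although 5 pairs of whole models did. Only 4 members (models 10, 24, 25 and 60) had fractional expected counts, the sign of reads shared with another model, a share of 5.48% against 8.39% of all models past the rule.

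A repeated gene structure ran through the scaffold. In all, 14 of its 84 models were built from the same row of coding parts, here called the shared layout: the coding part lengths of model 32, in order, were 64, 143, 126, 43, 115, 80, 16, 62, 104 and 342 bases, and the other 13 shared at least 5 of these lengths in the same order. Model 37 had the identical row of 10 lengths. No model among the 15211 on other scaffolds shared 5, and the closest, a single model, shared 4. On scaffold 52 itself the models outside the set shared at most 2. The opening row of 64, 143, 126 and 43 bases was found in 10 models on this scaffold and in none elsewhere. This likeness of structure was found after the expression values had been seen, and no sequence was compared.

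Of the 14 models with the shared layout, 13 were members: models 18, 23, 28, 29, 30, 31, 32, 37, 41, 65, 66, 70 and 71. The fourteenth, at 70712 to 72528, just missed the count rule. They were spread from base 45416 to base 194586, with 4 on the plus strand and 10 on the minus strand, and coded for 1029 to 1113 bases. Some departures from the row were sums of neighbouring parts of it. The part of 166 bases in models 28 and 29 equals 62 plus 104, and the part of 195 bases in model 41 equals 115 plus 80. None of the 14 had fractional counts, so the deposited counts hold no sign of reads split between them.

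**Figure D2:**
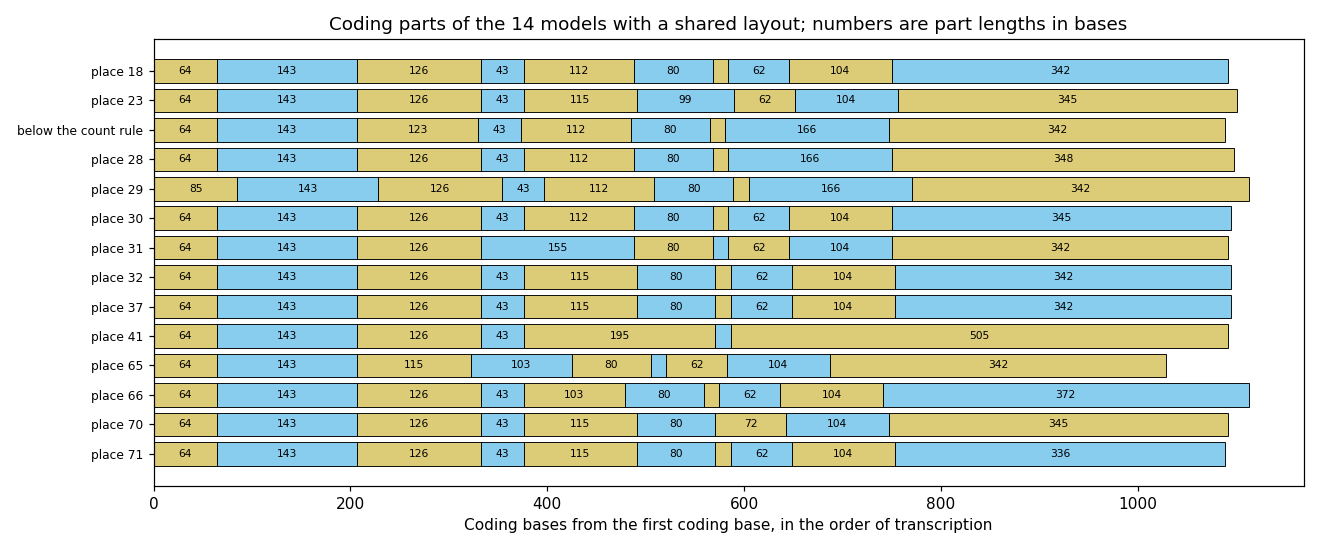
Coding parts of the 14 models with the shared layout, drawn to scale in coding bases from the start of the coding sequence, 1 row per model. The 2 alternating colours only separate neighbouring parts, and the same succession of part lengths recurs down the rows, with the 10 lengths of models 32 and 37 identical.

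The shared-layout models stood highest on L-rhamnose. All 13 members of the set had a higher fitted level on L-rhamnose than on cellobiose and than on xylose. The difference was called in 10 of 13 against cellobiose, where 11.0% of all tested models were called higher, and in 10 of 13 against xylose, where 15.9% were. Models 18, 28 and 31 were called in neither with this fit. Their median log2 difference was 2.43 over cellobiose, with a range of 0.90 to 5.31, and 2.95 over xylose, with a range of 1.03 to 7.77. For the other 60 members the medians were 0.03 and -0.01, with 9 called higher and 5 lower against cellobiose and 12 higher and 7 lower against xylose. In every member of the set but model 31, both L-rhamnose libraries lay above both from cellobiose. Leaving out 1 library could therefore not reverse the direction in those members, and all 13 differences over cellobiose stayed above 0. Dropping a cellobiose library gave a set median of 2.845 (replicate 1) or 2.085 (replicate 2) for that comparison. Dropping one from L-rhamnose gave 2.24 or 2.49, in the same order. In each of these fits fewer members of the set, and fewer of all tested models, were called higher than on cellobiose.

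Summed over the 13 members, the set reached 206 and 128 FPKM on cellobiose, 2177 and 1534 on L-rhamnose, with 85.1 and 118 on xylose. That was 7.95% and 5.21% of all members' FPKM on cellobiose, 45.8% and 38.5% on L-rhamnose, with 3.68% and 4.79% on xylose. The other 60 members together stood at 2383 and 2329, 2572 and 2455, and 2225 and 2356 FPKM on the 3 sugars. Most of the scaffold's higher sum on L-rhamnose thus lay in the set, and most of that in model 66.

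**Figure D3:**
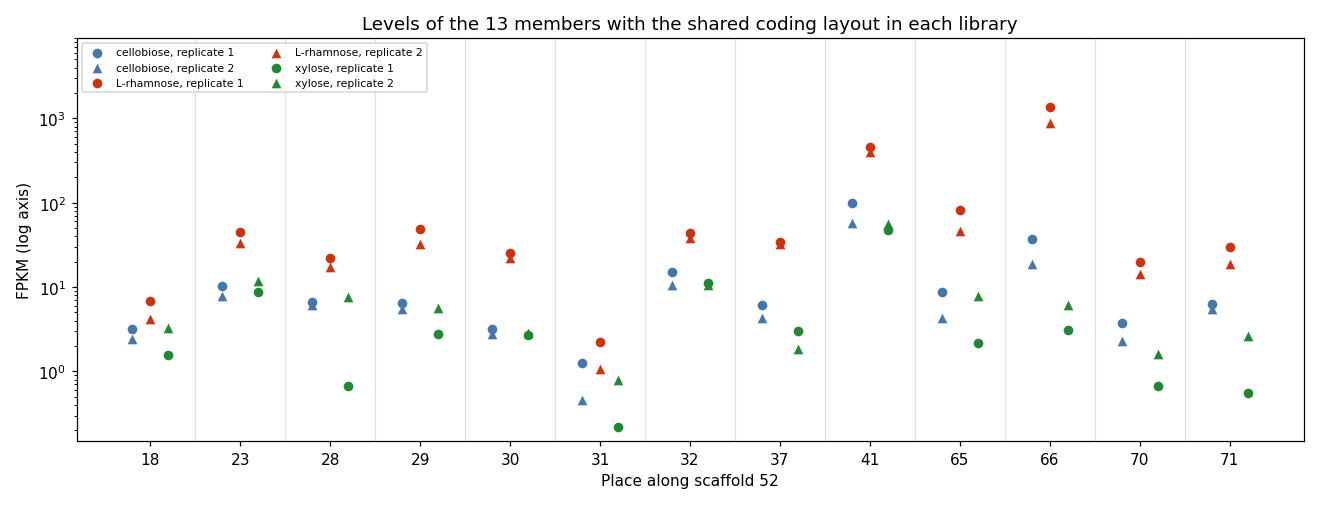
FPKM (log axis) of the 13 members with the shared layout in each of the 6 libraries, with circles for replicate 1 and triangles for replicate 2. Both L-rhamnose points lie above the other 4 in every model but 31, and those of model 66, at 1363 and 879 FPKM, are the highest.

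Model 66 (gene_9595, 176885 to 179203, minus strand) carried the greatest difference on the scaffold. It stood at 36.8 and 18.7 FPKM on cellobiose, 1363 and 879 on L-rhamnose, with 3.09 and 6.16 on xylose. The 3 groups did not overlap, and it was the only member called in all 3 comparisons (background over all tested models 0.829%). L-rhamnose exceeded cellobiose by 5.31 (SE 0.48, edgeR adjusted p = 0.00213) and xylose by 7.77 (SE 0.55, edgeR adjusted p = 0.00119). It alone gave 28.7% and 22.0% of the members' FPKM on L-rhamnose, and without it the members' sums were 2552 and 2439 on cellobiose, 3386 and 3110 on L-rhamnose, with 2307 and 2468 on xylose.

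Model 41 (104880 to 106363, plus strand) was the other abundant model of the set. Its level was 97.9 and 57.1 FPKM on cellobiose, 454 and 395 on L-rhamnose, with 47.7 and 55.8 on xylose. L-rhamnose lay above all other libraries, while cellobiose replicate 2 came close to the xylose pair. Its log2 difference was 2.43 over cellobiose (SE 0.28, edgeR adjusted p = 0.00407) and 2.89 over xylose (SE 0.28, edgeR adjusted p = 0.00177). It is also the model with the fewest coding parts of the set, 7 in place of 10.

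Models 28 to 32 lay in a row from 72778 to 83175, all on the minus strand and all with the shared layout, next to the fourteenth model that missed the count rule. Model 29 (74923 to 76596) stood at 6.47 and 5.43 FPKM on cellobiose, 48.7 and 32.8 on L-rhamnose, with 2.76 and 5.60 on xylose, and model 30 (77127 to 78715) at 3.18 and 2.76, 25.7 and 21.9, and 2.69 and 2.85. Model 32 (81600 to 83175) had 15.2 and 10.7, 44.0 and 38.0, and 11.3 and 10.7. In these 3 both L-rhamnose libraries lay above the other 4, by log2 differences over cellobiose of 2.75, 2.97 and 1.64. Model 28 (72778 to 74634) had 6.56 and 6.19, 22.02 and 17.2, and 0.67 and 7.61 FPKM, with its xylose replicates far apart. Its difference of 1.59 from cellobiose was not called (SE 0.72, edgeR adjusted p = 0.148), but was when only these 2 sugars were fitted. DESeq2 and limma on log2(FPKM + 1) called model 28 higher on L-rhamnose than on xylose. The other settings with all 6 libraries did not. Model 31 (79088 to 80910) was barely transcribed, at 1.25 and 0.46, 2.24 and 1.06, and 0.22 and 0.80 FPKM. Its cellobiose libraries overlapped both other groups. Replicate 1 on L-rhamnose thus ranged from 2.24 to 48.7 FPKM over 5 neighbours of like structure and strand.

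The remaining members of the set lay apart from each other or in pairs. Model 37 (95657 to 97725, plus strand), whose coding parts are identical in length to those of model 32, stood at 6.13 and 4.26 FPKM on cellobiose, 33.9 and 32.7 on L-rhamnose, with 3.03 and 1.82 on xylose. Its difference over cellobiose was 2.65 (SE 0.30, edgeR adjusted p = 0.00388). Model 23 (59993 to 61615, plus strand) had 10.3 and 7.89, 45.0 and 33.0, and 8.69 and 11.8 FPKM, a difference of 2.08 over cellobiose (SE 0.27, edgeR adjusted p = 0.00549). In both, the L-rhamnose libraries lay above all others, and cellobiose and xylose overlapped in model 23 only. Model 18 (45416 to 47012, plus strand), the first of the set along the scaffold, had 3.19 and 2.42, 6.84 and 4.23, and 1.57 and 3.31 FPKM, and its difference of 0.95 from cellobiose was not called (SE 0.42, edgeR adjusted p = 0.14).

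Over the whole scaffold, 19 of 73 members (26.0%) were called higher on L-rhamnose than on cellobiose, against 11.0% of all tested models. A further 5 members (6.85%) were called lower, against 11.0%. Differences of at least 2-fold were called in 18 higher and 5 lower, with backgrounds of 8.46% and 6.58%. The median log2 difference of the members was 0.36, and that of all tested models was -0.003. The higher calls numbered 8 when cellobiose replicate 2 was left out (background 1.25%), 6 when L-rhamnose replicate 1 was (0.86%) and 10 when L-rhamnose replicate 2 was (1.12%). Models 30, 40, 42, 63, 64 and 66 were called higher whichever library was left out. The lower calls numbered 0 when any of those 3 libraries was left out (backgrounds 1.22%, 0.295% and 0.401%) and 1 when cellobiose replicate 1 was (4.45%). They numbered 12, or 16.4% of members, when xylose replicate 1 (15.2%) or xylose replicate 2 (15.4%) was left out, so the shares over all models moved with them.

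Against xylose, 22 of 73 members (30.1%) were called higher on L-rhamnose, with a background of 15.9%, and 7 (9.59%) lower, with a background of 15.6%. At least 2-fold differences were called in 20 higher and 7 lower, with backgrounds of 12.6% and 8.61%. Fewer members and fewer of all models were called lower when either L-rhamnose library was left out. The median log2 difference of the 7 was -1.78 with all libraries, -1.51 without L-rhamnose replicate 1 and -1.91 without its replicate 2. Without the members that share reads the lower calls numbered 4 (5.8%). The 15.6% beside it still includes models that share reads. Since the L-rhamnose libraries enter both comparisons, the comparisons are not independent. In all, 18 members (24.7%, background 7.88%) were higher on L-rhamnose than on both other sugars, and 4 (5.48%, background 7.58%) were lower than on both, namely models 12, 14, 55 and 60. No comparison was called for 42 members (57.5%, background 62.0%). Model 6 met the count rule only through the L-rhamnose libraries, where it was high, so its calls support nothing. Without it 18 of 72 members were higher than on cellobiose and 21 than on xylose.

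Between xylose and cellobiose little was called. Model 66 had a log2 difference of -2.46 on xylose (SE 0.46, edgeR adjusted p = 0.032), the single lower call (1.37%, background 2.55%). It was not called when cellobiose replicate 1 or either L-rhamnose library was left out. No member was called higher by edgeR (background 1.66%), where 9 had an unadjusted p below 0.05. DESeq2 called 1 (background 4.49%) and limma on log2(FPKM + 1) none (background 1.16%). When xylose replicate 1 was left out 5 members (6.85%) were called lower, against 3.17% of all models, and when xylose replicate 2 was, 9 (12.3%) were, against 3.77%. The members' share of lower calls thus lay below that of all models with all 6 libraries and above it without either xylose library. Model 38 (97792 to 98423) had xylose replicates far apart. It stood at 80.1 and 60.5 FPKM on cellobiose, 22.3 and 19.5 on L-rhamnose, with 13.4 and 0.76 on xylose, and its xylose difference of -3.16 was not called (SE 0.70, edgeR adjusted p = 0.0577) although the groups did not overlap.

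**Figure D4:**
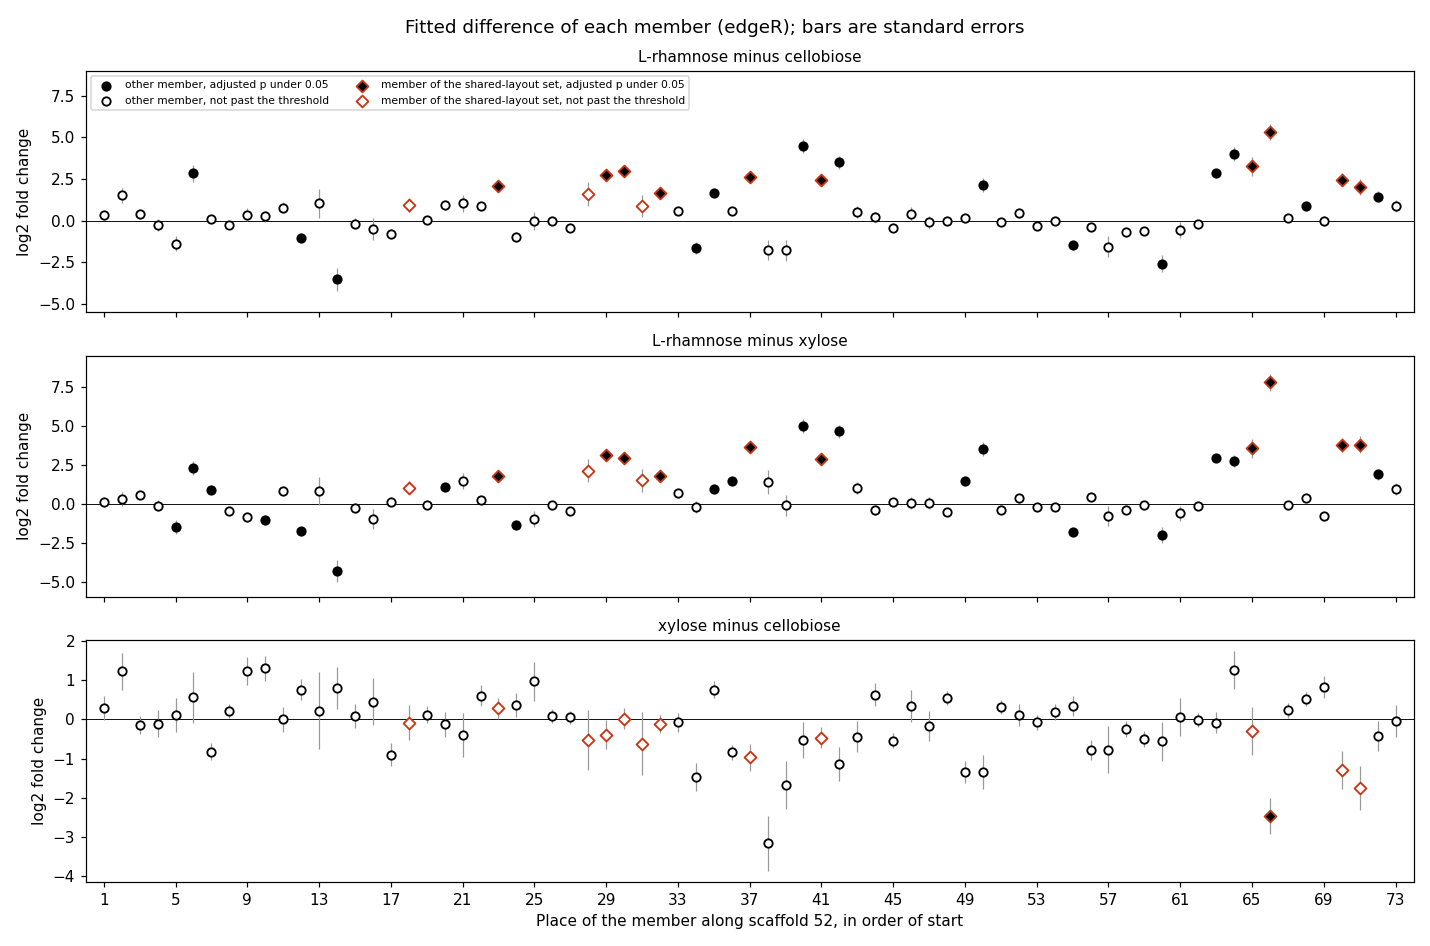
Fitted log2 differences of the 73 members against their place along scaffold 52 for the 3 comparisons, with bars for standard errors, called members filled and diamonds for the shared layout. The 13 diamonds lie above 0 in both comparisons with L-rhamnose, with model 66 highest at 5.31 and 7.77.

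Along the scaffold the called members were unevenly spread. Cut into 4 equal lengths, the first (bases 813 to 49959) held 19 members with 1 called higher and 2 lower on L-rhamnose than on cellobiose. That higher call was model 6, which met the count rule only through L-rhamnose, so it supports nothing. The second length (to 99106) held 20 with 6 higher and 1 lower, the third (to 148253) 17 with 4 and 1, and the last (to 197399) 17 with 8 and 1. Over all tested models 11.0% were called higher and 11.0% lower. The summed FPKM of the last length was 590 and 535 on cellobiose, 1791 and 1269 on L-rhamnose, with 470 and 304 on xylose. The second length held 6 higher calls, and its sums were closer, at 681 and 603, 749 and 712, and 575 and 550.0 FPKM. The first length held 4 of the 7 lower calls against xylose, among its 19 members, where 15.6% of all tested models were called lower. Those 4 were models 5, 10, 12 and 14, and models 5 and 10 were not called with library size only or in limma.

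Some called members lay in runs. Against cellobiose, models 6, 23, 32, 35, 37, 50 and 68 were called higher with neither neighbouring member called higher. The log2 differences of neighbours in that comparison correlated at 0.288 here and at 0.148 over all tested models. Against cellobiose, 3 runs of 3 or more neighbours were higher on L-rhamnose: models 40 to 42, 63 to 66 and 70 to 72. Against xylose the same 3 runs were called, and models 35 to 37 formed a further one. No run of lower calls had even 2 members. Each run held models with the shared layout beside models without it.

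The run of models 63 to 66 covered 170449 to 179203. Model 63 (170449 to 171876) stood at 5.15 and 4.10 FPKM on cellobiose, 34.02 and 33.4 on L-rhamnose, with 3.51 and 4.55 on xylose. Model 64 (172927 to 174419) had 1.74 and 0.88, 22.5 and 20.5, and 1.84 and 3.99 FPKM, and model 65 (174789 to 176381) 8.84 and 4.29, 82.0 and 46.7, and 2.15 and 7.78. In all 3 the L-rhamnose libraries stood clear of the other 4. The log2 differences over cellobiose were 2.84 (SE 0.25), 3.998 (SE 0.44) and 3.26 (SE 0.59), and model 65 was no longer called when cellobiose replicate 2 or either L-rhamnose library was left out. Models 63 and 64 lack the shared layout but have 4 coding parts each, of which 2 are of the same length, 52 and 169 bases.

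The edges of this run were sharp. Model 62 (167811 to 170311), which ends next to model 63, had the steadiest level of all uncalled members that had a mean CPM (counts scaled to library size) of at least 10, at 17.8 and 18.6 FPKM on cellobiose, 16.5 and 15.6 on L-rhamnose, with 16.5 and 16.4 on xylose. At the other end model 67 (179227 to 182769) begins 23 bases beyond model 66. It stood at 32.8 and 32.9, 36.4 and 39.1, and 40.5 and 30.6 FPKM, and its difference from cellobiose was 0.18 (edgeR adjusted p = 0.533). Its neighbour, model 66, differed by 5.31.

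The run of models 40 to 42 covered 100916 to 107463 around model 41 of the shared layout. Model 40 (gene_9556, 100916 to 103365, minus strand, 21 exons) stood at 5.91 and 4.55 FPKM on cellobiose, 133 and 103 on L-rhamnose, with 1.65 and 5.03 on xylose. L-rhamnose exceeded cellobiose by 4.47 (SE 0.43, edgeR adjusted p = 0.00246) and xylose by 5.00 (SE 0.45, edgeR adjusted p = 0.00145). Model 42 (106717 to 107463) had 9.69 and 4.91, 105 and 64.7, and 2.76 and 3.37 FPKM, differences of 3.51 (SE 0.38) and 4.64 (SE 0.42). In both the L-rhamnose libraries lay far above the rest. When L-rhamnose replicate 1 was left out, model 41 was no longer called against cellobiose.

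The neighbour before this run differed from it. Model 39 (98748 to 100271) shares 11 coding part lengths in order with model 40, out of 13 and 20 parts. It stood at 23.1 and 24.9 FPKM on cellobiose, 9.94 and 4.32 on L-rhamnose, with 11.2 and 2.47 on xylose, with cellobiose above the other sugars. Its difference on L-rhamnose from cellobiose was -1.78 and was not called (SE 0.62, edgeR adjusted p = 0.0776), and that of model 40 was 4.47.

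The run of models 70 to 72 covered 190493 to 196351 near the end of the scaffold, at lower levels. Model 70 (190493 to 192229) had 3.76 and 2.31 FPKM on cellobiose, 19.7 and 14.5 on L-rhamnose, with 0.67 and 1.60 on xylose. Model 71 (192681 to 194586) had 6.28 and 5.44, 30.2 and 19.0, and 0.56 and 2.64, and model 72 (195376 to 196351) 9.84 and 7.12, 25.7 and 21.4, and 4.16 and 7.41. In models 70 and 71 the order was L-rhamnose, cellobiose, xylose with no overlap of the groups. The log2 differences over cellobiose were 2.46 (SE 0.38), 2.04 (SE 0.47) and 1.45 (SE 0.34). Against cellobiose the run kept 1 called member when cellobiose replicate 1 was left out, and 0 when its replicate 2 or one of the L-rhamnose libraries was.

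**Figure D5:**
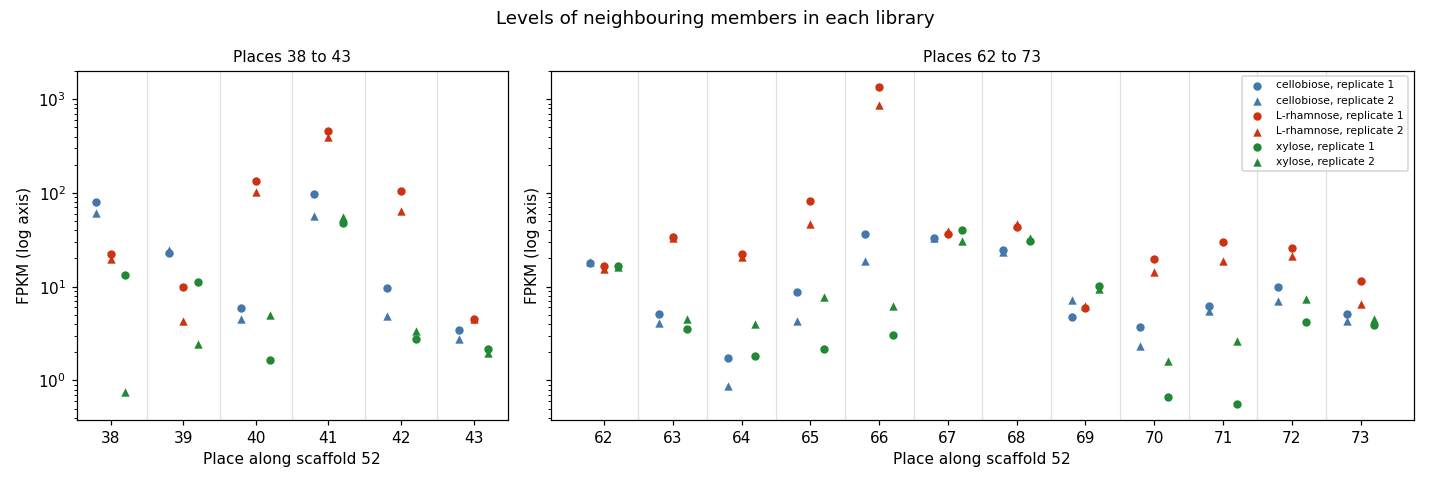
FPKM (log axis) per library of models 38 to 43 and 62 to 73 by place along the scaffold, which hold the 3 runs called higher on L-rhamnose than on cellobiose, with circles for replicate 1 and triangles for replicate 2. Models 62 and 67, on either side of models 63 to 66, keep similar levels in all 6 libraries.

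Models 35 to 37 (88904 to 97725) were called together against xylose, but model 35 was not when either L-rhamnose library or xylose replicate 2 was left out. Model 35 (88904 to 90304), one of 3 members with a single exon, stood at 30.7 and 26.6 FPKM on cellobiose, 85.8 and 100.1 on L-rhamnose, with 52.2 and 37.1 on xylose. Model 36 (92683 to 94264) had 27.4 and 27.5, 39.7 and 44.9, and 14.97 and 13.3 FPKM, with the sugars in 3 separate bands. Its difference of 1.44 from xylose was called (SE 0.19, edgeR adjusted p = 0.00394). Just before them model 34 (87230 to 88294) moved the other way: it had 9.78 and 6.03, 2.89 and 2.19, and 2.87 and 2.39 FPKM, and its log2 difference from cellobiose was -1.66 on L-rhamnose (SE 0.36, edgeR adjusted p = 0.0214). This call of model 34 was lost on leaving out any one library of cellobiose or L-rhamnose.

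Outside these runs and the shared layout, models 6 and 50 were called at least 4-fold higher on L-rhamnose than on another sugar. The call of model 6 supports nothing, since it met the count rule only through L-rhamnose. Model 6 (17524 to 18105) had 1.97 and 1.33 FPKM on cellobiose, 13.6 and 11.5 on L-rhamnose, with 2.59 and 1.98 on xylose. Model 50 (128383 to 130716) had 12.1 and 10.4, 44.6 and 56.3, and 2.07 and 6.10, and its difference of 3.49 over xylose was called (SE 0.44, edgeR adjusted p = 0.00338). Its neighbour, model 49 (125523 to 127764), with 6 coding part lengths in common, was at 19.8 and 17.9, 21.7 and 20.6, and 4.90 and 8.86 FPKM. Both stood lowest on xylose, and model 50 but not model 49 was called higher on L-rhamnose than on cellobiose. That call was lost on leaving out any one library of those sugars, and the difference between the 2 models was not tested.

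The lower side on L-rhamnose was made of scattered single models. Model 14 (gene_9516, 37599 to 38130, minus strand) stood at 51.5 and 56.5 FPKM on cellobiose, 3.71 and 5.73 on L-rhamnose, with 135 and 36.5 on xylose. L-rhamnose lay below all other libraries, and the xylose replicates straddled the cellobiose pair. Its log2 difference on L-rhamnose was -3.52 from cellobiose (SE 0.67, edgeR adjusted p = 0.0155) and -4.32 from xylose (SE 0.68, edgeR adjusted p = 0.00603). Neither was called when either L-rhamnose library was left out, nor the first when cellobiose replicate 2 was.

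Model 60 (gene_9588, 161415 to 163964, plus strand), the most abundant member on cellobiose, had 319 and 295 FPKM on cellobiose, 47.1 and 56.9 on L-rhamnose, with 294 and 88.2 on xylose. It shares reads with another model, so its level is uncertain. Its difference of -2.58 on L-rhamnose from cellobiose (SE 0.52, edgeR adjusted p = 0.0183) lost its call on leaving out any one library of these sugars. Model 55 (141105 to 143101) had 62.3 and 66.0, 22.4 and 24.8, and 93.8 and 55.3 FPKM, and model 12 (35177 to 36017) 9.46 and 10.3, 3.95 and 5.86, and 14.9 and 15.9. In both, the L-rhamnose libraries were the lowest of the 6, and the differences from cellobiose were -1.46 (SE 0.27) and -1.02 (SE 0.29). Both of these calls were lost on leaving out any one library of cellobiose or L-rhamnose. Model 12 was also not called against cellobiose with only 2 sugars fitted, with the replicate number as a block or with a minimum fold of 1.5.

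The remaining calls were smaller. Model 68 (182971 to 185462) stood at 24.5 and 23.7 FPKM on cellobiose, 43.4 and 47.1 on L-rhamnose, with 30.5 and 33.3 on xylose, in 3 separate bands, and was higher on L-rhamnose than on cellobiose by 0.89 (SE 0.17, edgeR adjusted p = 0.0154). On L-rhamnose, models 7 and 20 exceeded their xylose levels by 0.90 and 1.05. Models 5, 10 and 24 were lower in that comparison, with log2 differences of -1.49, -1.03 and -1.35, and models 10 and 24 share reads with other models. Models 5 and 10 lost their calls with library size only, in limma, with only 2 sugars fitted and with the replicate number as a block. With a minimum fold of 1.5 required, none of the models in this paragraph was called.

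The 4 members with the highest mean FPKM were models 66, 2, 27 and 46. Model 2 (3103 to 6390) stood at 124 and 134 FPKM on cellobiose, 347 and 404 on L-rhamnose, with 136 and 422 on xylose, and was not called against cellobiose (edgeR adjusted p = 0.0569). Model 27 (70194 to 71033) stood at 216 and 222, 157 and 177, and 196 and 223 FPKM. Model 46 (118330 to 121160) had 170.0 and 152, 244 and 184, and 103 and 276. Of these 4, model 66 was called and the others were not, and models 41 and 60, next in mean FPKM, were both called. Steady members besides model 62 were model 19 (47956 to 49980), at 10.3 to 13.1 FPKM, and model 26 (67170 to 70089), at 86.2 to 110.2 FPKM, over the 6 libraries.

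The members most like model 66 in their pattern over the 6 libraries were models 40, 42 and 65. The measure was the Euclidean distance of log2(FPKM + 1) centred on each member's mean, and it was 2.85, 3.34 and 4.12. Of these 3 only model 65 has the shared layout, and models 40 and 42 lie in the other run.

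At the edge of the count rule, models 13, 31 and 16 were just inside, with second-highest expected counts of 10, 11 and 13. The 3 models just outside had second-highest counts of 7, 4.49 and 4. The first of those is the fourteenth model of the shared layout, whose counts were 4 and 2 on cellobiose, 12 and 5 on L-rhamnose, with 7 and 1 on xylose. The 11 models left out had a median of 294 coding bases.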

How the data were processed

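RNA-seq of 6 mycelium libraries (3 sugars, 2 replicates each) was used. The authors deposited per library a table of expected counts and FPKM for each gene model. The submitters' processing notes name HISAT, Bowtie2 and RSEM, with no versions. Use of strand in counting is likewise not stated. In the deposited tables the length behind each FPKM equals the model's coding length in 100% of entries.

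Expected counts were rounded to whole numbers and tested with edgeR 4.0.16 (R 4.3.3; TMM, filterByExpr, quasi-likelihood, all 6 libraries in 1 fit, 12667 tested of 14443 models with a rounded count above 0), Benjamini-Hochberg adjusted over all tested models, threshold 0.05. All 73 members passed the filter. The fit had 3 residual degrees of freedom and a common biological coefficient of variation of 0.218. DESeq2 1.42.0 and limma 3.58.1 on log2(FPKM + 1) were alternatives. Sums, medians and coding-part matches are descriptions. Identifiers were printed for at most 2 members per direction and comparison, those with the greatest called log2 difference, non-overlapping libraries and a mean CPM of at least 10 on the higher sugar. Other members were named by place when they lay in runs of 3 or more, differed at least 4-fold, were of extreme level, length or steadiness, or lay at the edge of the count rule; the shared-layout models, and models 5, 7, 10, 12, 20, 24, 34, 38, 39, 49, 55, 67 and 68, were chosen after their values were seen. Members and lists were chosen with earlier results of these data known. The RefSeq gene table at hand is of another strain, and 0 of its identifiers matched.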

Additional observations from a re-analysis of the deposited data

How the results depend on the processing

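Among the 73 members, no named difference reversed under any alternative. Where the libraries of the compared sugars did not overlap, leaving out 1 library could not have reversed the difference. The members called higher on L-rhamnose than on cellobiose numbered 6 to 24 when 1 library was left out. Those called lower numbered 10 in DESeq2 (15.2%, against 15.1% of all models), 3 with a minimum fold of 1.5 (4.11%, against 2.72%), 10 with only the 2 sugars fitted (14.1%, against 14.3%), and 0 to 12 with a library left out. For xylose against cellobiose, higher calls numbered 1 in DESeq2 (1.49%, against 4.49% of all models). The lower calls there numbered 4 with library size only, 2 without a filter, 7 in DESeq2, 3 and 2 in limma with pseudocounts of 1 and 0.1, 0 with the minimum fold, with only 2 sugars and with the replicate block, and 0 to 9 with a library left out. With library size only these lower calls were 5.48% of members, against 3.26% of all models. Without a filter they were 2.74%, against 2.26%, and in DESeq2 10.4%, against 4.56%. In limma they were 4.11% and 2.74%, against 3.02% and 2.93%. With the minimum fold, only 2 sugars and the replicate block, 1.31%, 1.07% and 1.82% of all models were called lower. In the fits with a library left out, the shares of all models called varied as well. Against xylose, lower calls on L-rhamnose numbered 4 in both limma fits (5.48%, against 10.3% and 10.2%) and 3 with the minimum fold (4.11%, against 5.49%). They numbered 4 without genes that share reads (5.8%), beside the 15.6% of all models with those genes kept. The causes were not tested.

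Replicate numbers are shared by the sugars but no label pairs them, and the replicate differences correlated at -0.20, -0.12 and -0.09 across genes. With the replicate number as a block, 17 members were called higher on L-rhamnose than on cellobiose (23.3%, against 6.75% of all models). A further 4 were called lower (5.48%, against 5.86%). Against xylose that fit called 22 higher (30.1%, against 12%) and 5 lower (6.85%, against 10.5%). Scaling by library size alone moved the median of all models to -0.12 for xylose against cellobiose and 0.16 for L-rhamnose against xylose. DESeq2 gave an adjusted p to 66 of the 73 members for L-rhamnose against cellobiose and to 67 for xylose against cellobiose. Left-out fits assume that the lone library varies like the other groups.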

Other observations

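Another pair of models with alike coding parts lay near the start of the scaffold, outside the comparisons above. Models 2 and 7 share 7 coding part lengths in order, out of 12 and 19. Model 2 had 347 and 404 FPKM on L-rhamnose, and model 7 (18048 to 21849) had 66.4 and 70.4 FPKM on cellobiose, 83.8 and 64.1 on L-rhamnose, with 30.7 and 40.8 on xylose. Only model 7 was called, with a log2 difference of 0.90 on L-rhamnose from xylose (edgeR adjusted p = 0.0179).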
